A study of Mus musculus with 2 samples.

Results

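The 8 genes described here encode proteins by which endothelial cells of the blood-brain barrier return compounds to the blood or carry them through the cell. Abcb1a, Abcg2 and Abcc4 are ATP-driven efflux pumps, and Tfrc, Insr, Lrp1, Lrp8 and Ager are surface receptors for transferrin, insulin, lipoproteins and the ligands of RAGE. They were taken by symbol, and each was found as 1 row of the 53465 rows of the expression table, of which 22040 were protein-coding.

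Expression was compared between endothelial cells of NeuroD1-treated and of GFP-treated mice, with 1 library for each treatment. All animals were C57Bl/6 mice of the genotype tie2-cre, a transgene whose Tie2 promoter drives Cre recombinase in endothelial cells and also in blood lineages. Per the labels, cells of 3 mice were collected and 10000 cells were lysed, so that a library is a pool of animals and no difference has a replicate check. The labels give neither the tissue, the vector, the dose nor the time after treatment.

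An endothelial cell of the barrier has few vesicles and sealed junctions, so that most traffic passes through named transporters. Efflux pumps of the ABC family in the membrane facing the blood use ATP to expel drugs and metabolites. Receptors bring in larger cargo by clathrin-coated pits, and part of that cargo is released on the far side of the cell, a route called transcytosis.

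All 8 genes had reads in both libraries, and none differed by 2-fold on the scale log2(FPKM + 1), where FPKM stands for fragments scaled by exon length and library size. At a log2 difference of at least 1, 0 of the 8 were higher and 0 lower in NeuroD1, against 2.62% higher and 3.84% lower among 20697 protein-coding genes at 1 FPKM or more. Ager passed that threshold on other scales, given with its values. The largest positive difference was that of the pump Abcc4, at 0.38, and the largest negative one that of Ager, the gene of RAGE, at -0.99. Over the 8 genes the median difference was -0.10, with 3 above 0 and 5 below, beside -0.02 for the protein-coding genes. Reads were recovered from the deposited values, and for each gene the ratio of FPKM has an exact Clopper-Pearson 95% interval that covers counting error only. It lay above 1 for Abcb1a and Abcc4 and below 1 for Lrp1 and Ager. The same held above 1 for 5.93% and below 1 for 6.22% of the 14791 protein-coding genes that reached 20 reads over both libraries. These shares are not matched in depth. Of those genes 5541 had fewer than 50 reads, as had Ager with 34, while the other genes described here had 181 to 414. The variance between the libraries was 1.73 times that of counting at 20 to 50 reads and 2.34 times at 200 to 500.

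**Figure D1:**
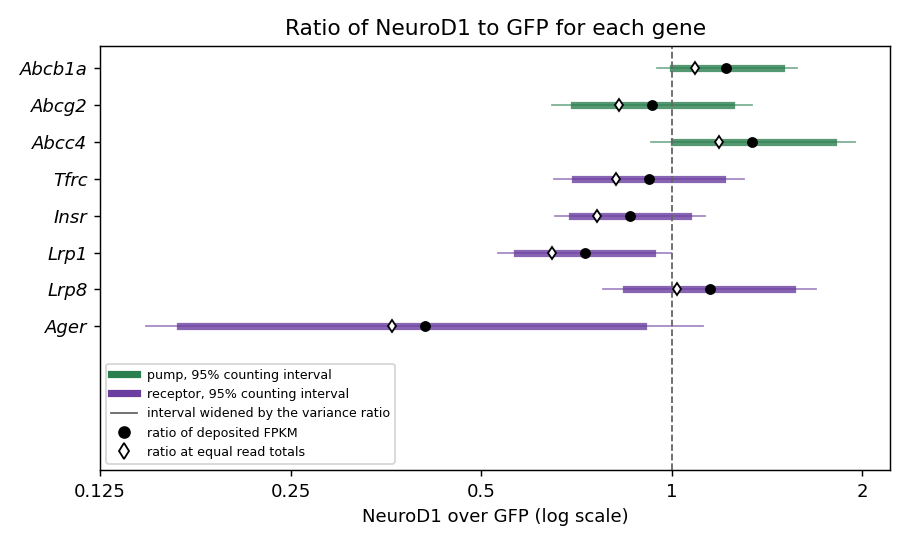
Ratio of FPKM in NeuroD1 over GFP for each gene on a log axis, pumps in green and receptors in purple. Thick bars are exact 95% counting intervals, thin bars are widened for the variance between the libraries, filled points are ratios of deposited FPKM and open diamonds ratios at equal read totals. Abcc4 is farthest right at 1.34 and Ager farthest left at 0.408, and every diamond lies left of its point.

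NeuroD1 is a basic helix-loop-helix factor, a class that binds E-boxes, written CANNTG. To show the DNA at the starts of the genes at either end of the ratios, the RefSeq windows of GRCm38.p6 from 250 bases before to 50 bases after the start are printed for Abcc4, Lrp1 and Ager, 5′ to 3′ on the gene's strand, with CANNTG in capitals.
Abcc4 (chr14:118706170-118706469, minus strand): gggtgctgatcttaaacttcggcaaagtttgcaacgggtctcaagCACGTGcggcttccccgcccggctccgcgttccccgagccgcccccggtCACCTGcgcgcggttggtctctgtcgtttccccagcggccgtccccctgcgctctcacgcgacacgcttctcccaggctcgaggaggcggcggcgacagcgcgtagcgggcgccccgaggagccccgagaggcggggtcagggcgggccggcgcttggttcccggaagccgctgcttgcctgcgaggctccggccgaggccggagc
Lrp1 (chr10:127621099-127621398, minus strand): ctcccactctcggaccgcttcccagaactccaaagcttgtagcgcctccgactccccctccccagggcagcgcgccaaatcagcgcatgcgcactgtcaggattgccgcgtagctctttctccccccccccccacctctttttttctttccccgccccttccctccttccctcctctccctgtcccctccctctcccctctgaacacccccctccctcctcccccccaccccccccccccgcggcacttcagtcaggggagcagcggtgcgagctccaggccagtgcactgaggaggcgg
Ager (chr17:34597600-34597899, plus strand): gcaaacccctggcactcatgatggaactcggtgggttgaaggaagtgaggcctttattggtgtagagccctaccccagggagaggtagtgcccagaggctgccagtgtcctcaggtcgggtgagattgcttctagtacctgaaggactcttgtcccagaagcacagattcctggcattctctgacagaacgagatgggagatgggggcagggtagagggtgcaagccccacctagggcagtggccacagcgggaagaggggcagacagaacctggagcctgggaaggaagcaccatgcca

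The Abcc4 window held 2 such hexamers, beginning at -205 and -156 relative to the start, and the Lrp1 and Ager windows held 0. CANNTG is its own reverse complement as a pattern, so both strands are searched at once, and it occurred in 72.3% of the 32851 windows in the table. Of the 7 genes with a window, taken nearest the annotated gene start, Abcb1a held 2, Abcg2 and Tfrc 1 each and Lrp8 0. The only Abcb1a window lies 92986 bases before the gene start used for counting and is not printed. Insr has no entry. No binding was measured here, and the letters are a description of these windows.

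Abcb1a, which encodes P-glycoprotein of the barrier in mice (GRCm38 chr5:8660077-8748575, plus strand, 28 merged exons), had the highest level of the 8 genes in both libraries. It stood at 20.1 FPKM in NeuroD1 (215 reads, exact Poisson 95% interval 17.5 to 23.0 FPKM), against 16.4 FPKM in GFP (199 reads, 14.2 to 18.9 FPKM). The ratio was 1.22 (interval 1.004 to 1.49), so its lower bound all but touches 1. Among 85 protein-coding genes of like level and depth, meaning within 1.5 times in mean FPKM and in reads over both libraries, 40% had a difference as high as the 0.28 of Abcb1a, and their median was 0.21. Genes of its abundance thus often showed a difference of that size. In rank it was number 239 of the protein-coding genes in NeuroD1 and number 277 in GFP.

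Abcb1b, a related gene to Abcb1a on the same chromosome, stood at 2.82 FPKM in NeuroD1 (44 reads) and 3.40 FPKM in GFP (60 reads), with a ratio of 0.831 (interval 0.550 to 1.25). The sources used here do not say how reads that fit both genes, if any, were counted, so how far such reads shape the split is unknown. Summed, the pair held 259 reads in NeuroD1 and 259 reads in GFP, which at the deposited scale is a ratio of 1.13 (interval 0.95 to 1.35). The interval of Abcb1a above 1 thus does not extend to the summed pair. Abcb1a also shares 553 exon bases with Gm42686, an unclassified transcript on the opposite strand, which had 3.37 FPKM in NeuroD1 and 1.54 FPKM in GFP.

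Abcc4, or Mrp4 (GRCm38 chr14:118482692-118706219, minus strand, 33 merged exons), exports organic anions, cyclic nucleotides and prostaglandins. Its level was 8.67 FPKM in NeuroD1 (108 reads), against 6.45 FPKM in GFP (91 reads), a ratio of 1.34 (interval 1.01 to 1.80). Its difference of 0.38 was reached or passed by 7.52% of 1050 genes of like level and depth. Abcg2, the breast cancer resistance protein, a pump that acts as a dimer and shares many substrates with P-glycoprotein (GRCm38 chr6:58584523-58695676, plus strand, 22 merged exons), stood at 5.85 FPKM in NeuroD1 (93 reads) and 6.27 FPKM in GFP (113 reads). Its ratio was 0.932 (interval 0.701 to 1.24), so neither a rise nor a fall was detectable at this depth.

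**Figure D2:**
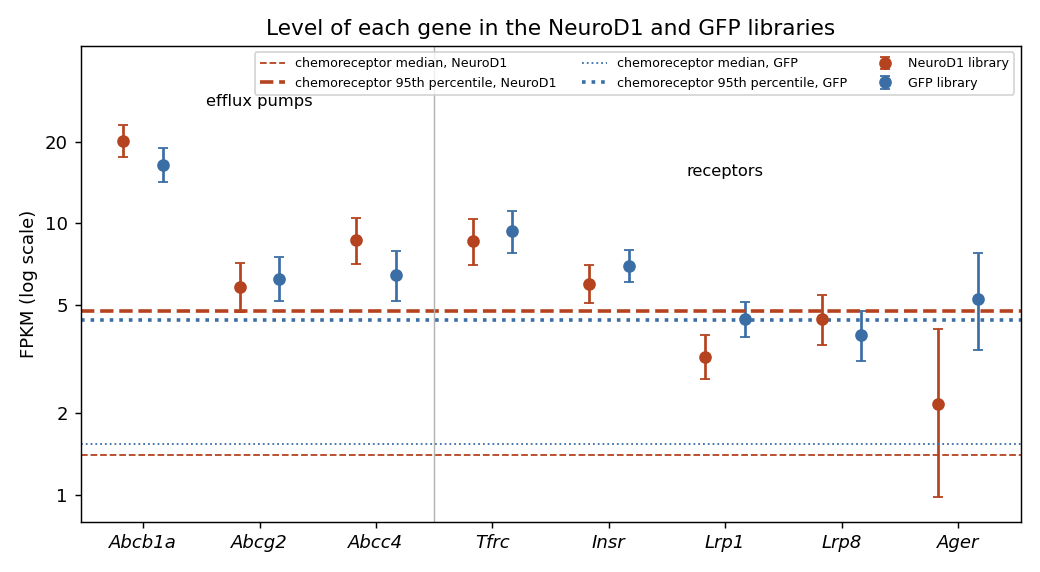
FPKM of each gene on a log axis in the NeuroD1 library (left, orange) and the GFP library (right, blue), with exact Poisson 95% intervals. Thin horizontal lines mark the median and thick ones the 95th percentile of chemoreceptor genes in each library. Abcb1a stands highest at 20.1 FPKM in NeuroD1 and 16.4 FPKM in GFP, and Ager lies below the thick line in NeuroD1 and above it in GFP, at 2.16 FPKM in NeuroD1 and 5.29 FPKM in GFP.

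Among the receptors, Tfrc, which binds iron-loaded transferrin and carries it into the cell (GRCm38 chr16:32608920-32632794, plus strand, 19 merged exons), had the highest level. It stood at 8.62 FPKM in NeuroD1 (104 reads), against 9.37 FPKM in GFP (128 reads), a ratio of 0.920 (interval 0.704 to 1.20). Insr, the insulin receptor tyrosine kinase (GRCm38 chr8:3122061-3279617, minus strand, 23 merged exons), followed at 6.01 FPKM in NeuroD1 (161 reads), against 6.98 FPKM in GFP (212 reads). Its ratio of 0.860 had an interval of 0.696 to 1.06. Both receptors were thus slightly lower in NeuroD1 by value, with intervals that include 1.

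Lrp1 (GRCm38 chr10:127538161-127621148, minus strand, 88 merged exons) encodes a very large endocytic receptor that takes up apolipoprotein E, protease complexes and amyloid-beta. Its level was 3.24 FPKM in NeuroD1 (112 reads, 2.67 to 3.90 FPKM) and 4.45 FPKM in GFP (174 reads, 3.81 to 5.16 FPKM). The ratio was 0.729 (interval 0.570 to 0.930), and 6.69% of 493 genes of like level and depth were as low or lower. Lrp8, also known as ApoER2 (GRCm38 chr4:107802261-107876840, plus strand, 24 merged exons), binds reelin and apolipoprotein E. It was the only receptor that was higher in NeuroD1 by value, at 4.44 FPKM (91 reads), against 3.88 FPKM in GFP (90 reads), with a ratio of 1.15 (interval 0.846 to 1.55). The ratio of Lrp8 was 1.02 at equal read totals and 0.972 at the same sum of FPKM, so its side of 1 depends on the scale, while Lrp1 was below 1 on each.

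Ager (GRCm38 chr17:34597862-34600936, plus strand, 6 merged exons) encodes RAGE, which binds advanced glycation products, S100 proteins, HMGB1 and amyloid-beta. It had the fewest reads, 9 in NeuroD1 and 25 in GFP, and stood at 2.16 FPKM in NeuroD1 (interval 0.986 to 4.09 FPKM), against 5.29 FPKM in GFP (3.42 to 7.80 FPKM). The ratio was 0.408 (interval 0.167 to 0.903), the lowest of the 8 genes. Its log2(FPKM + 1) difference of -0.99 falls just short of the 2-fold threshold, but it was -1.26 with a pseudocount of 0.1, -1.15 at the same sum of FPKM, -1.11 at equal read totals and -1.44 after subtraction of the chemoreceptor median. On the deposited scale 3.46% of 2512 genes of like level and depth were as low or lower. In 1 library each, a pooled isolate also cannot tell fewer cells of a type from less RNA per cell.

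**Figure D3:**
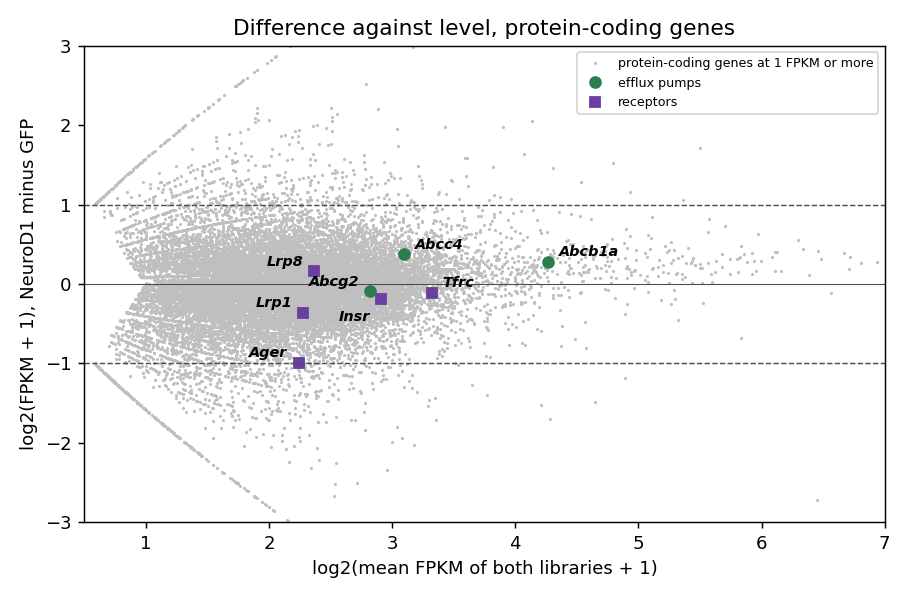
Difference in log2(FPKM + 1), NeuroD1 minus GFP, against the log2 mean level for 20697 protein-coding genes at 1 FPKM or more (grey), with 41 genes beyond the axis limits not drawn. The 3 pumps (green circles) and 5 receptors (purple squares) lie within the grey cloud and between the dashed 2-fold lines, Ager lowest at -0.99.

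Reads summed over the pumps came to 416 in NeuroD1 and 403 in GFP, a ratio of 1.17 (interval 1.02 to 1.34), or 1.04 (0.902 to 1.19) at equal read totals, where the interval includes 1. Summed over the receptors they came to 477 in NeuroD1 and 629 in GFP, a ratio of 0.859 (interval 0.761 to 0.969), or 0.762 (0.675 to 0.860) at equal read totals. Abcb1a supplied 215 of the pump reads in NeuroD1 and 199 in GFP, and Lrp1 and Insr most of the receptor reads. The sums describe these 8 genes, and no test between them was made. The intervals of the sums cover counting error only and were not widened for the variance between the libraries. Among the pumps Abcg2, at a ratio of 0.932, lay below 1, and among the receptors Lrp8, at 1.15, lay above 1.

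Counting error was not the whole spread. Over protein-coding genes of 20 reads or more, the libraries differed with 1.76 times the variance of counting, and with 2.34 times over those with 200 to 500 reads. With intervals widened by 1.76, those of Abcb1a (0.948 to 1.58), Abcc4 (0.928 to 1.95) and Ager (0.148 to 1.12) included 1, and that of Lrp1 ended at 0.999. With 2.34, chosen after seeing the data, and with the mean-based ratio of 3.54, the interval of Lrp1 and of every other gene included 1. Scale mattered as well. The deposited FPKM carry a factor of 1.13 between the libraries beyond the read totals, which were 2001425 in NeuroD1 and 2011126 in GFP. At equal read totals Abcb1a had a ratio of 1.09 (interval 0.891 to 1.32) and Abcc4 1.19 (0.894 to 1.59). The totals are themselves shaped by a few genes: 19 genes above 1000 FPKM held 57.4% of reads in NeuroD1 and 52.3% in GFP, and the predicted gene Gm10800 alone 41.9% in NeuroD1 and 37.7% in GFP. On the scale of equal totals Insr, at 0.763 (0.618 to 0.941), joined Lrp1, at 0.647 (0.505 to 0.825), and Ager, at 0.362 (0.149 to 0.801), with intervals below 1. Protein-coding genes as a whole had a median of -0.15 there, and 381 of them were 2-fold higher and 990 lower, against 543 higher and 795 lower on the deposited scale. With both libraries brought to 1 sum of FPKM those counts were 337 and 1099, the median was -0.19, and the interval of Lrp8 was 0.718 to 1.32. With that sum taken only over genes at or below 1000 FPKM, the ratios stayed close to those on the deposited scale. Abcb1a was then at 1.23 (interval 1.01 to 1.5), Abcc4 at 1.35 (1.01 to 1.8) and Insr at 0.863 (0.699 to 1.06).

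Level also went with the difference across the table. The median difference of protein-coding genes was -0.03 at 2 to 5 FPKM, the range of Lrp1, Lrp8 and Ager, then 0.03 at 5 to 10 FPKM and 0.12 at 10 to 20 FPKM, the range of Abcb1a. Exon length did not order the median in the same way, with medians between -0.03 and 0.00 from under 2 to 20 kb. The spread did go with length. The 5th and 95th percentiles of the difference were -1.46 and 1.27 under 2 kb. They were -0.79 and 0.68 at 2 to 5 kb, the range of Ager, and -0.37 and 0.34 at 12 to 20 kb, the range of Insr and Lrp1. How much of the ratios goes with level or length was not tested.

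A background measured the same way comes from a class of genes taken by symbol, without a check of each gene for use in endothelium. Of 1499 chemoreceptor genes, for odours, pheromones and taste, 96.2% in NeuroD1 and 97.7% in GFP were above 0, with medians of 1.41 FPKM in NeuroD1 and 1.54 FPKM in GFP and 95th percentiles of 4.78 FPKM in NeuroD1 and 4.4 FPKM in GFP. Abcb1a stood at 14.3 times that median in NeuroD1 and 10.7 times in GFP. Tfrc was at 6.13 times in NeuroD1 and 6.07 times in GFP, and Abcc4 at 6.16 times in NeuroD1 and 4.18 times in GFP. Lrp1 was at 2.31 times in NeuroD1 and 2.88 times in GFP, and Lrp8 at 3.16 times in NeuroD1 and 2.51 times in GFP.

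A gene as long as Lrp1, with 17717 exon bases, would hold 48.6 reads in NeuroD1 and 60.4 reads in GFP at the chemoreceptor median, which is 43.4% of the reads found in NeuroD1 and 34.7% in GFP. For Ager, with 2141 exon bases, it would hold 5.87 of 9 reads in NeuroD1 and 7.30 of 25 reads in GFP. Ager therefore lay within the chemoreceptor range in NeuroD1, where 399 of the 1499 genes were at or above it, and above the 95th percentile in GFP, where 48 were. Lrp1 was below that percentile in NeuroD1, with 173 chemoreceptor genes at or above it, and just above it in GFP, with 74. Lrp8 lay below it in both libraries. The pumps, Tfrc and Insr lay above it in both. Many protein-coding genes did so too: Lrp1 in GFP, just above it, was at the 70.8th percentile of protein-coding genes.

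**Figure D4:**
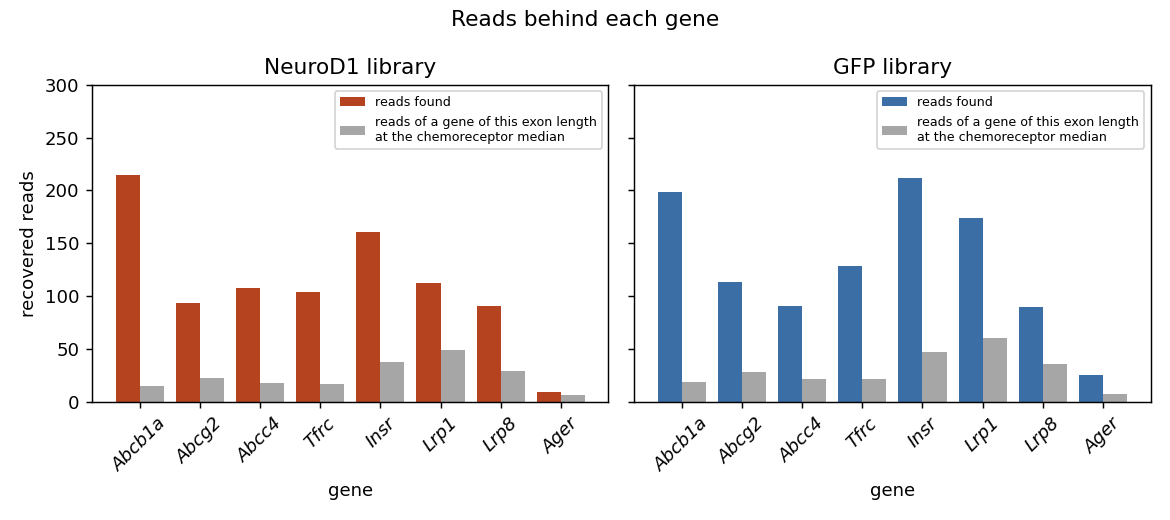
Recovered reads of each gene in the NeuroD1 library (left panel) and the GFP library (right panel), with grey bars for the reads that a gene of the same exon length would hold at the chemoreceptor median. Grey bars are small beside Abcb1a, at 15 of 215 reads in NeuroD1 and 18.7 of 199 reads in GFP, and closest to the reads found for Ager in NeuroD1, at 5.87 of 9 reads.

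In NeuroD1 the order of FPKM ran Abcb1a, Abcc4, Tfrc, Insr, Abcg2, Lrp8, Lrp1 and Ager. Neighbours in it differed beyond counting error at 3 of 7 steps: Abcb1a over Abcc4 (ratio 2.32, interval 1.83 to 2.95), Tfrc over Insr (1.44, 1.11 to 1.85) and Lrp8 over Lrp1 (1.37, 1.03 to 1.82). In GFP it ran Abcb1a, Tfrc, Insr, Abcc4, Abcg2, Ager, Lrp1 and Lrp8, with 2 of 7 steps beyond counting error, Abcb1a over Tfrc (1.75, 1.40 to 2.21) and Tfrc over Insr (1.34, 1.07 to 1.68). From Insr down to Lrp8 in GFP no gene stood apart from the next. The span from lowest to highest was 9.33 times in NeuroD1 and 4.24 times in GFP. FPKM divides by the whole exon length. DRUG-seq, the barcoding method named in the labels, primes at the poly(A) tail, and where along the transcript reads fell cannot be read from gene totals. Median FPKM of protein-coding genes was 2.79 in NeuroD1 and 2.95 in GFP under 2 kb of exon. At 12 to 20 kb it was 3.18 in NeuroD1 and 3.21 in GFP. How far the order of the genes rests on the division by whole exon length was not tested.

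The wider ABC superfamily, which also holds lipid transporters and non-pumping members, had 50 protein-coding genes in the table, of which 49 were measured at 1 FPKM or more. Of these 0 were 2-fold higher and 0 lower in NeuroD1, beside 2.62% higher and 3.84% lower among protein-coding genes at 1 FPKM or more. Those shares also stand beside the 2-fold counts of the lists below. Of the 49 genes, 18 had a difference above 0, and the median was -0.05. Abcb1a was second in level in both libraries. Abcc4 was number 5 in NeuroD1 and 7 in GFP, and Abcg2 number 7 in NeuroD1 and 9 in GFP. Above Abcb1a stood Abcf1, a translation factor without a membrane domain, at 24.8 FPKM in NeuroD1 and 23.4 FPKM in GFP (ratio 1.06, interval 0.874 to 1.28). Abca4, a retinoid flippase best known from photoreceptors, stood at 17.8 FPKM in NeuroD1 and 14.5 FPKM in GFP (ratio 1.23, interval 1.07 to 1.42). The largest differences were those of the sterol exporter Abcg1, at 3.66 FPKM in NeuroD1 and 1.89 FPKM in GFP with no recovered reads, and of Abca15, at 1.57 FPKM in NeuroD1 and 2.85 FPKM in GFP (interval of the ratio 0.289 to 1.01). Of 43 ABC genes with at least 20 reads, the interval lay above 1 for 5, which were Abcb1a, Abcc4, Abca4, Abcc8 and Abcg4, and below 1 for 1, the cholesterol exporter Abca1, at 3.76 FPKM in NeuroD1 and 5.29 FPKM in GFP (ratio 0.711, interval 0.527 to 0.956). The potassium channel subunit Abcc8, at 2.85 FPKM in NeuroD1 and 1.62 FPKM in GFP, and Abcg4, a relative of Abcg1, at 4.13 FPKM in NeuroD1 and 2.43 FPKM in GFP, lay below the chemoreceptor 95th percentile of their library. Over all protein-coding genes with at least 20 reads the shares were 5.93% above and 6.22% below. These intervals cover counting error only and were not widened. Abca1, Abcc8 and Abcg4 were named after their values were seen.

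Of 19 measured genes of the lipoprotein receptor family and its ligands, 0 passed the 2-fold threshold either way, 11 were above 0, and the median difference was 0.07, which turned to -0.09 at equal read totals. Among 18 with at least 20 reads the interval lay below 1 for 3, among them Lrp1 and, named after its values were seen, Vldlr. Over all protein-coding genes with that many reads 6.22% lay below 1 and 5.93% above. Vldlr, which shares reelin as a ligand with Lrp8, stood at 1.78 FPKM in NeuroD1 and 2.83 FPKM in GFP (ratio 0.629, interval 0.404 to 0.966). Lrp2, or megalin, also named after its values were seen, was the 1 with an interval above 1, at 2.67 FPKM in NeuroD1 and 1.84 FPKM in GFP (ratio 1.45, interval 1.04 to 2.02). Vldlr and Lrp2 lie within the chemoreceptor range in both libraries. Apoe, a lipoprotein ligand of several of these receptors, stood at 13.4 FPKM in NeuroD1 and 12.7 FPKM in GFP, and Lrpap1, the chaperone of the family, at 1.62 FPKM in NeuroD1 and 3.08 FPKM in GFP (ratio 0.526, interval 0.25 to 1.05).

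Iron handling genes around Tfrc had a median difference of -0.10 over 14 measured genes, with 0 past the 2-fold threshold either way and 0 of 13 with an interval apart from 1. Tfrc was second in level among them in both libraries. The ferritin heavy chain Fth1, which stores iron, stood at 30.2 FPKM in NeuroD1 and 16.7 FPKM in GFP without recovered reads, and the light chain Ftl1 at 5.36 FPKM in NeuroD1 and 8.78 FPKM in GFP (ratio 0.610, interval 0.294 to 1.21). Trf, the transferrin that Tfrc binds, stood at 1.39 FPKM in NeuroD1 and 3 FPKM in GFP (ratio 0.463, interval 0.188 to 1.05). The ferritin chains lay on opposite sides of 1, with no interval for Fth1 and one that includes 1 for Ftl1.

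Insulin and IGF receptor signalling had a median of 0.02 over 15 measured genes, or -0.11 at equal read totals, with 0 past the threshold and 0 of 14 with an interval apart from 1. Insr was number 3 in level there in both libraries. The related receptor Igf1r stood above it, at 7.6 FPKM in NeuroD1 and 7.36 FPKM in GFP (ratio 1.03, interval 0.867 to 1.23). Akt1, a kinase downstream of both receptors, stood at 4 FPKM in NeuroD1 and 5.52 FPKM in GFP (ratio 0.725, interval 0.450 to 1.15).

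Of 13 measured genes of the RAGE list, 1 was 2-fold higher and 2 were 2-fold lower in NeuroD1, with a median of -0.02. Over all protein-coding genes at 1 FPKM or more the shares were 2.62% higher and 3.84% lower. All 3 are S100 proteins with few reads. S100a11 had 2 reads in NeuroD1 and 11 in GFP (ratio 0.206, interval 0.0222 to 0.944), S100a8 had 4 reads in NeuroD1 and 12 in GFP (interval 0.0887 to 1.25), and S100a6, named after its values were seen, had 12 reads in NeuroD1 and 5 in GFP (interval 0.891 to 9.85). S100a9, which pairs with S100a8 as calprotectin, had 21 reads in NeuroD1 and 12 in GFP (ratio 1.98, interval 0.931 to 4.42). The amyloid precursor App, at 11.6 FPKM in NeuroD1 and 11.8 FPKM in GFP, had a ratio of 0.982 (interval 0.837 to 1.15). Ager ranked number 10 of 13 in NeuroD1 and 8 in GFP.

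**Figure D5:**
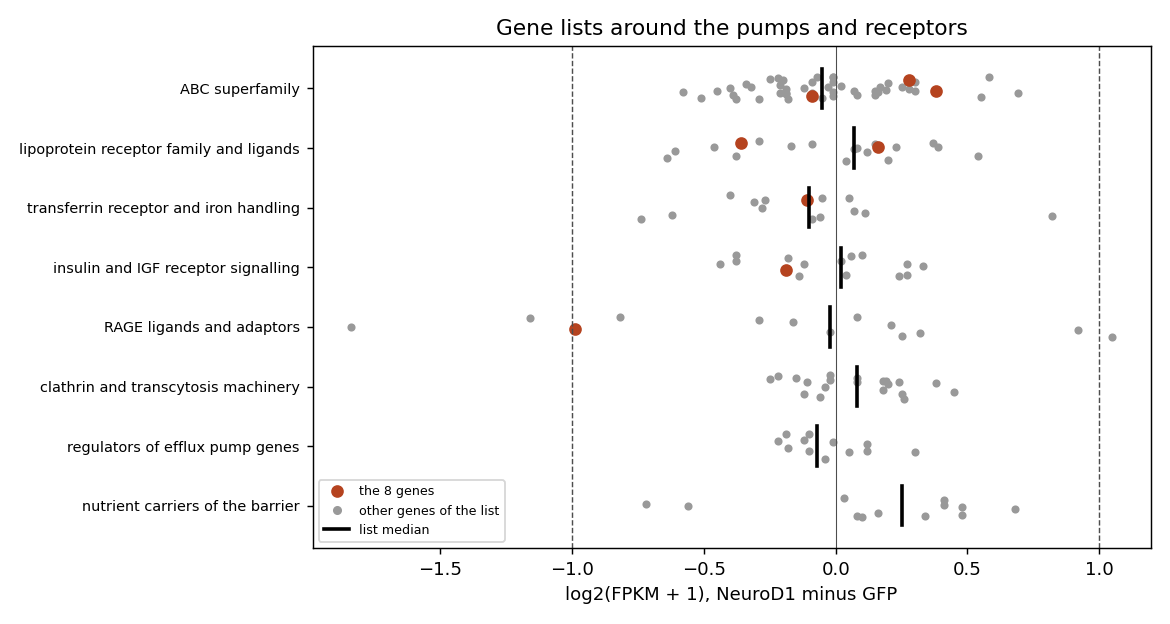
Difference in log2(FPKM + 1), NeuroD1 minus GFP, of each measured gene in 8 lists, with the 8 genes in orange, other genes in grey and list medians as black bars. Medians lie between -0.10 and 0.25, and the genes past the dashed 2-fold lines are all in the RAGE list.

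Clathrin and transcytosis machinery had a median of 0.08 over 20 genes, or -0.07 at equal read totals, 0 of them past the threshold. Rab7, a GTPase of late endosomes, stood at 64.4 FPKM in NeuroD1 and 49.4 FPKM in GFP (ratio 1.30, interval 1.11 to 1.53), and Mfsd2a, a lipid transporter that restrains transcytosis at the barrier, at 12.3 FPKM in NeuroD1 and 10.3 FPKM in GFP (interval 0.803 to 1.79). Regulators of efflux pump genes had a median of -0.07 over 12 genes, 0 of them past the threshold, with the glucocorticoid receptor Nr3c1 at 10.9 FPKM in NeuroD1 and 8.66 FPKM in GFP and the Wnt effector Lef1 at 6.94 FPKM in NeuroD1 and 8.04 FPKM in GFP (interval 0.675 to 1.10). Nutrient carriers had a median of 0.25 over 12 genes, 10 of them above 0 and 0 past the threshold, and a median of 0.09 at equal read totals. Of 11 with at least 20 reads the interval lay above 1 for 4, among them the thiamine carrier Slc19a3, at 30.4 FPKM in NeuroD1 and 22.6 FPKM in GFP (ratio 1.35, interval 1.08 to 1.68), and below 1 for 2, among them the lactate carrier Slc16a1, at 4.75 FPKM in NeuroD1 and 8.49 FPKM in GFP (ratio 0.560, interval 0.375 to 0.823). Over all protein-coding genes with that many reads the shares were 5.93% above and 6.22% below, and genes at 10 to 20 FPKM had a median difference of 0.12 and those at 20 to 50 FPKM one of 0.23. Slc2a1, the glucose transporter, at 36.0 FPKM in NeuroD1 and 33.4 FPKM in GFP, was more abundant than every pump and receptor described here.

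The label of the cells was checked against 12 markers of brain endothelium, of which 12 in NeuroD1 and 11 in GFP stood above the 95th percentile of chemoreceptor genes. Their summed level was 214 FPKM in NeuroD1 and 186 FPKM in GFP. Pecam1, an adhesion molecule, stood at 14.4 FPKM in NeuroD1 and 12.4 FPKM in GFP, and Cldn5, a tight junction protein, at 31.5 FPKM in NeuroD1 and 33.9 FPKM in GFP. Neurod1 stood at 182 FPKM in NeuroD1 and 0.664 FPKM in GFP (970 and 4 reads), high in the library labelled NeuroD1. Several of the genes are also used by other cells. Mural cell markers, beside Lrp1, summed to 27.2 FPKM in NeuroD1 and 31.1 FPKM in GFP, with 2 of 9 above that percentile in each library. Erythroid markers, beside Tfrc, summed to 27.2 FPKM in NeuroD1 and 41.6 FPKM in GFP, with 2 of 6 in NeuroD1 and 3 of 6 in GFP above it. Lung epithelium, where RAGE is most abundant, summed to 34.9 FPKM in NeuroD1 and 35.3 FPKM in GFP, with 3 of 5 above it in each. Neuron markers, beside Lrp8, summed to 66.1 FPKM in NeuroD1 and 53.6 FPKM in GFP, with 4 of 10 in NeuroD1 and 2 of 10 in GFP above it. Platelet markers summed to 13.8 FPKM in NeuroD1 and 25 FPKM in GFP, and microglia markers to 38.9 FPKM in NeuroD1 and 36.6 FPKM in GFP. Of the 5 platelet markers 0 were higher in NeuroD1, with a median difference of -0.67, and 1 in NeuroD1 and 3 in GFP were above that percentile. The median difference was -0.61 for erythroid markers (2 of 6 higher) and -0.20 for mural cells (3 of 9). It was 0.24 for lung epithelium (3 of 5), 0.35 for neurons (7 of 10) and 0.26 for brain endothelium (9 of 12). Of the 8 microglia markers 2 were higher in NeuroD1, with a median difference of -0.14, and 2 in NeuroD1 and 4 in GFP were above that percentile. No marker of these lists was at 0 in either library. A count above the chemoreceptor percentile does not by itself show a cell type, as many protein-coding genes lie above it. In NeuroD1 it falls between Lrp8 (4.44 FPKM), at the 71.6th percentile of protein-coding genes, and Abcg2 (5.85 FPKM), at the 83.9th. In GFP it falls just below Lrp1 (4.45 FPKM), at the 70.8th. The part of other cells in the ratios was not tested.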

How the data were processed

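The values are FPKM as the authors deposited them, in a table with a column for the NeuroD1 and one for the GFP library. GRCm38 is the build named in the submitters' processing notes, and featureCounts 1.6.3, Bowtie2 2.3.5.1 and DESeq, without a version, are the tools. Strand, multi-mapping and molecular identifiers: their handling is not given in these sources. FPKM times merged exon length (GENCODE M21, GRCm38) was a whole multiple of 1 step per library, within 0.02 reads for 51161 genes (95.7%), which gave reads. Gene positions follow that annotation.

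Differences are log2(FPKM + 1), NeuroD1 minus GFP, which understates changes of low genes. With 1 library per group no p-value was computed. Recovery and intervals were run on simulated reads with counting error only, built with the same exon lengths and steps. That simulation cannot show how the intervals behave at the larger variance of these libraries. Whether reads are independent molecules is unknown. The genes and lists were chosen with earlier results of these data known. List genes were named by a rule taking the 2 with the highest mean FPKM and the 2 with the largest absolute difference per list; not all are printed, some genes are not reported here, and others are said to be named after their values were seen. With 2 values a gene, no genes were ranked by likeness. The variance ratio was taken from the median squared deviation; its mean was 3.54, of which 162 genes with 500 reads or more gave 50.8% of the summed deviation, and 1.76 without them. Alternatives were other pseudocounts, FPKM minimums, scalings, a background subtraction and other intervals. Scripts ran in Python 3.11.15, with pandas 2.3.3, scipy 1.17.1 and numpy 2.4.6; figures used matplotlib 3.10.9.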

Additional observations from a re-analysis of the deposited data

How the results depend on the processing

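No paired analysis was possible because NeuroD1 and GFP have 1 library each, and none can be left out. The count of genes 2-fold lower, 0 at first, was 1 with a pseudocount of 0.1, at the same sum of FPKM in both, with the chemoreceptor median subtracted and at equal read totals; in each case it was Ager. The count 2-fold higher was 0 under all settings run. The 2 genes with an interval above 1 were 0 at the same sum of FPKM, at equal read totals, with 99% intervals and with intervals widened by any of the 3 variance ratios. The count with an interval below 1, 2 at first, was 3 at the same sum of FPKM and at equal read totals, where Insr joined Lrp1 and Ager. It was 0 with 99% intervals, 1 with the ratio of 1.76 (Lrp1), 0 with the ratio of 2.34 of genes with 200 to 500 reads and 0 with the ratio of 3.54. The 99% and widened intervals are wider by construction. For the scalings, the factor on NeuroD1 values was 0.849 at the same sum of FPKM and 0.887 at equal read totals, and moved all genes alike. At the same sum over genes at or below 1000 FPKM the factor was 1.003, and 2 genes had an interval above 1 and 2 below. Those counts also held with the median of protein-coding genes subtracted. The median difference, -0.10, ranged from -0.30 at the same sum of FPKM to -0.07 with a pseudocount of 5. At that sum the median of protein-coding genes was -0.19. Over protein-coding genes a pseudocount of 0.1 gave 1205 2-fold higher and 1692 lower, a pseudocount of 5 gave 43 and 49, background subtraction 1263 and 1228, and a minimum of 5 FPKM 208 and 212. Equal read totals and the ratios of 2.34 and 3.54 were chosen after seeing the data. The 56 alternative values of single genes moved by less than the half-width of the gene's own counting interval, a loose measure at these reads. The medians of the lipoprotein receptor, insulin and clathrin lists were below 0 at equal read totals and at the same sum of FPKM.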
